A study of Mus musculus with 19 samples.

Results

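Gene expression in whole ovaries that lack Desert hedgehog was compared with that of control ovaries across 12379 genes. The comparison used 8 of the 19 arrays of the series: the 4 titled as Dhh knockouts (Dhh KO 1 to 4) and the 4 control arrays numbered 5 to 8. Each array carried RNA from ovaries of female mice aged 2 months. The controls (dhet) were heterozygous for both Dhh and Ihh, so each had lost 1 copy of either gene, and the labels describe the deletion as specific to the ovary. The driver of the deletion, the deleted exons, the state of Ihh in the Dhh knockouts, the strain and any pooling of animals are not stated in the labels. No label says that the 4 arrays of a group came from separate animals, so the tests measure the spread between these arrays. The controls were restricted to numbers 5 to 8 because the signals of the BioC hybridization spike, a bacterial transcript added before hybridization, divide the series into 2 sets of arrays. Its 3'/5' ratio was under 0.8 on these 8 arrays and on the 4 Ihh KO arrays, 12 of the 19 in all. That division was read from the values and is not in the labels. Control 8 stood farthest from its group, with a median absolute log2 distance of 0.221 to the other controls, beside 0.154 to 0.18 for controls 5 to 7 and 0.17 to 0.199 for the knockouts.

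Hedgehog ligands are secreted proteins that bind the receptor Ptch1 and thereby release Smo, which then acts through the Gli transcription factors. Ptch1, Hhip and Gli1 are themselves transcribed in response to the signal and so serve as its usual readouts. In the ovary, granulosa cells make Desert hedgehog (Dhh) and Indian hedgehog (Ihh), and the theca and stromal cells around the follicle receive them. Desert hedgehog is also the Hedgehog ligand of testicular Sertoli cells and of Schwann cells.

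Dhh itself was the only one of the 12379 genes that passed the test. Its 2 tested readout genes, Ptch1 and Hhip, differed by 0.19 and -0.05 log2 units and did not pass. The Dhh signal was 811, 621, 1077 and 1085 on control arrays 5 to 8, and 13.2, 5.14, 18.8 and 25.4 on Dhh KO arrays 1 to 4. All 4 knockout arrays lay far below all 4 controls, as their labels state. The mean signal fell from 898 ± 225 (SD, n = 4) to 15.6 ± 8.57 (SD, n = 4), a ratio of 0.0174. All 4 knockout signals lay below the filter of 69.4, so the size of the difference depends on the constant added before taking logs. The log2 difference was -5.37 (SE 0.31, 95% interval -6.07 to -4.68, adjusted p = 6.25e-05, limma with Benjamini-Hochberg adjustment). It was -4.35 with the constant at the 25th percentile of all signals and -6.03 with none, and Dhh was called in both. Where the probes lie relative to the deleted exons is not given, so the size of the fall describes the probed stretch of the transcript. A second, dimmer Dhh probe set read 86.2, 104, 79.6 and 70.4 in the controls and 63.5, 16.2, 8.99 and 7.85 in the knockouts, also without overlap. That 1 called gene was 0.00808% of the genes tested.

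The other ligand, Ihh, did not pass. Its signal was 225, 238, 160 and 206 in the controls and 145, 108, 168 and 140 in the Dhh knockouts. The groups overlapped through control 7 and Dhh KO 3, and the log2 difference was -0.55 (SE 0.19, unadjusted p = 0.0177, adjusted p = 0.48, limma). Sonic hedgehog, Shh, was below the expression filter.

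**Figure D1:**
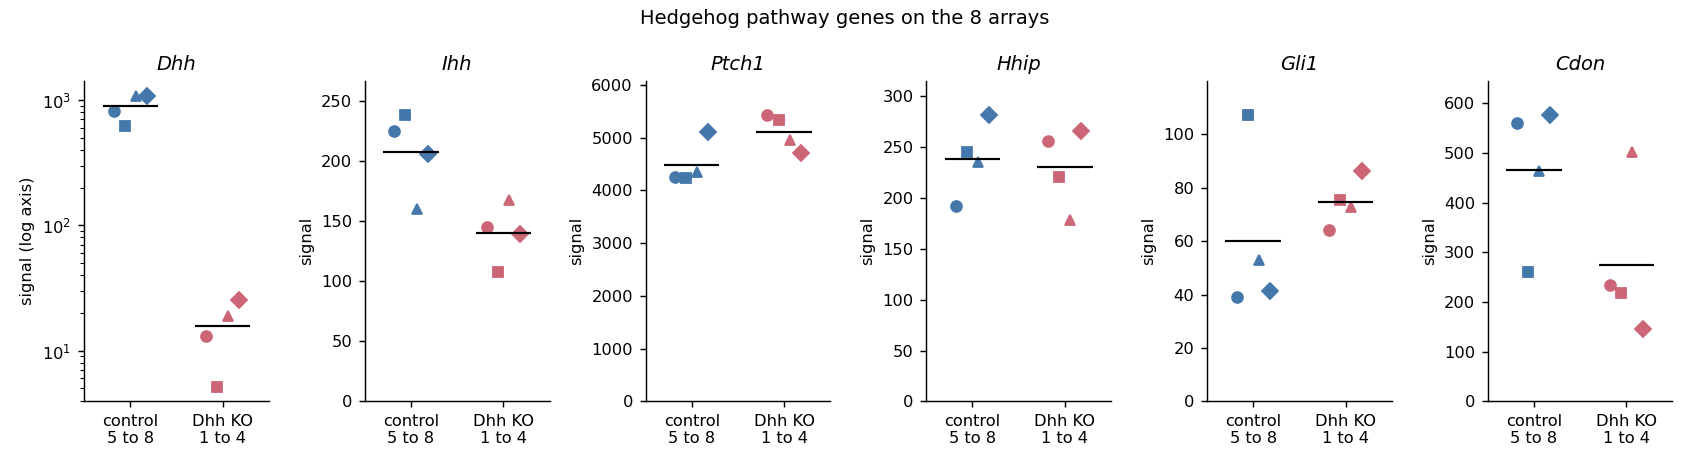
Signal of 6 Hedgehog pathway genes on control arrays 5 to 8 (blue) and Dhh KO arrays 1 to 4 (red); symbols run circle, square, triangle, diamond in array order, lines are group means, and the Dhh axis is logarithmic while the others start at 0. Dhh separates the groups by far, while Ihh, Ptch1, Hhip, Gli1 and Cdon overlap between them.

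Of the targets, Ptch1, the receptor and negative feedback arm of the pathway, gave 4259, 4236, 4351 and 5104 in the controls and 5421, 5338, 4959 and 4704 in the knockouts. Dhh KO 1 and 2 were above every control, while Dhh KO 3 and 4 lay between control 8 and the other 3 controls. The log2 difference was 0.19 (SE 0.08, 95% interval 0.006 to 0.369, unadjusted p = 0.0438, adjusted p = 0.523, limma). The 2 dimmer Ptch1 probe sets went in opposite directions. One read 62.9, 67.6, 45.1 and 43.0 in the controls and 130, 122, 153 and 154 in the knockouts, with no overlap and a log2 difference of 1.27, but its mean over the series was under the filter. The other read 237, 224, 232 and 220 in the controls and 150, 202, 174 and 162 in the knockouts, again with no overlap, for a difference of -0.40. The direction of Ptch1 therefore depended on the probe set, and the mean over its 2 probe sets above the filter was -0.11.

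Hhip, a decoy receptor that binds the ligands, read 192, 245, 235 and 281 in the controls and 256, 220, 178 and 265 in the knockouts. The 2 groups interleaved, and the log2 difference was -0.05 (95% interval -0.45 to 0.34, adjusted p = 0.94, limma). One of its dimmer probe sets, under the filter, was lower without overlap, at 139, 137, 146 and 151 against 115, 95.6, 64.4 and 106. Gli1, the transcription factor that reports the signal, was under the filter and was not tested. It read 38.9, 107, 53.0 and 41.5 in the controls and 64.1, 75.5, 72.9 and 86.2 in the knockouts.

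For scale, the readouts were set against the Ihh knockouts of the same set of arrays, a difference in which both groups are mutants. Hhip read 49.9, 17.1, 9.43 and 105 on Ihh KO arrays 1 to 4, each below every Dhh KO array. Ptch1 read 3226, 2950, 3582 and 4292 there, again each below every Dhh KO array. The array labelled Ihh KO 4 had a Dhh signal of 2.96 against 527 to 709 on the other Ihh KO arrays, which goes against its label. Over the 12 arrays of the set, Dhh KO exceeded Ihh KO by 2.55 for Hhip (adjusted p = 0.343), 0.55 for Ptch1 (adjusted p = 0.394) and 1.64 for Ihh (adjusted p = 0.394, limma). Without that array the differences were 3.05 for Hhip (adjusted p = 0.00376), 0.65 for Ptch1 (adjusted p = 0.0239) and 2.07 for Ihh (adjusted p = 0.0239, limma).

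None of the 8 tested receptors and ligand-handling genes passed the adjusted threshold. Of these, 3 were higher and 5 lower, with a median log2 difference of -0.06, beside -0.03 over all genes. The median ran from -0.091 without Dhh KO 1 to 0 without control 5. Cdon, a co-receptor for the ligands, read 559, 261, 464 and 575 in the controls and 235, 218, 502 and 145 in the knockouts. Of the knockout arrays 3 were below every control, and Dhh KO 3, the knockout with the lowest Gapdh 3'/5' ratio, lay among the controls. The Cdon difference was -0.83 (SE 0.35, unadjusted p = 0.0413, adjusted p = 0.522, limma). A dimmer Cdon probe set above the filter read 333, 237, 341 and 413 against 218, 187, 283 and 273 (-0.44). There both Dhh KO 3 and Dhh KO 4 lay among the controls. Boc, a related co-receptor, differed by -0.27. The remaining members lay closer to 0, with Smo, the signal transducer, at -0.06, the co-receptor Gas1 at 0.10, Disp1, which releases the ligands, at 0.12, and Hhat, which acylates them, at -0.06.

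Downstream of Smo, 4 of 12 tested members were higher and 8 lower, with a median of -0.04 and 0 of 12 called. The median ran from -0.07 without Dhh KO 1 to -0.012 without control 8. At an unadjusted p under 0.05 there was 1 member, higher, beside 3.77% of all genes. Gsk3b, a kinase that phosphorylates Gli proteins, read 3342, 3525, 3855 and 3900 in the controls and 4089, 4520, 4171 and 4212 in the knockouts. It was the one member of the 12 whose groups did not overlap, beside 2.19% of all genes in that direction, with a difference of 0.22 (SE 0.07, unadjusted p = 0.0148, adjusted p = 0.473, limma). Over all Gsk3b probe sets above the filter, the differences ran from -0.22 to 0.63, so its direction depended on the probe set. The transcription factors Gli2 and Gli3 differed by 0.06 and -0.12. Sufu, the main inhibitor of Gli proteins, differed by -0.27, and Prkaca, the catalytic subunit of protein kinase A, by -0.39. Dhh KO 4 was the lowest Prkaca array, at 732 against 1623 to 1760 on the other knockouts.

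Across all genes the differences were small and leaned downward. Of the 12379 genes, 5410 were higher and 6969 lower in the knockouts, with a median of -0.03. The median absolute difference was 0.13 and the 99th percentile was 0.78, while the median half-width of a 95% interval was 0.34. In 24 genes the difference was at least 1 log2 unit upward and in 17 at least 1 downward. At an unadjusted p under 0.05, 467 genes were higher (3.77%) and 691 lower (5.58%). All 4 knockout arrays were above all 4 controls in 271 genes (2.19%) and below them in 405 (3.27%). With each array centred on its median, the unadjusted split was 147 higher to 397 lower. Without control 8 it was 704 to 987, with 2 genes called, Dhh and Smtnl2.

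**Figure D2:**
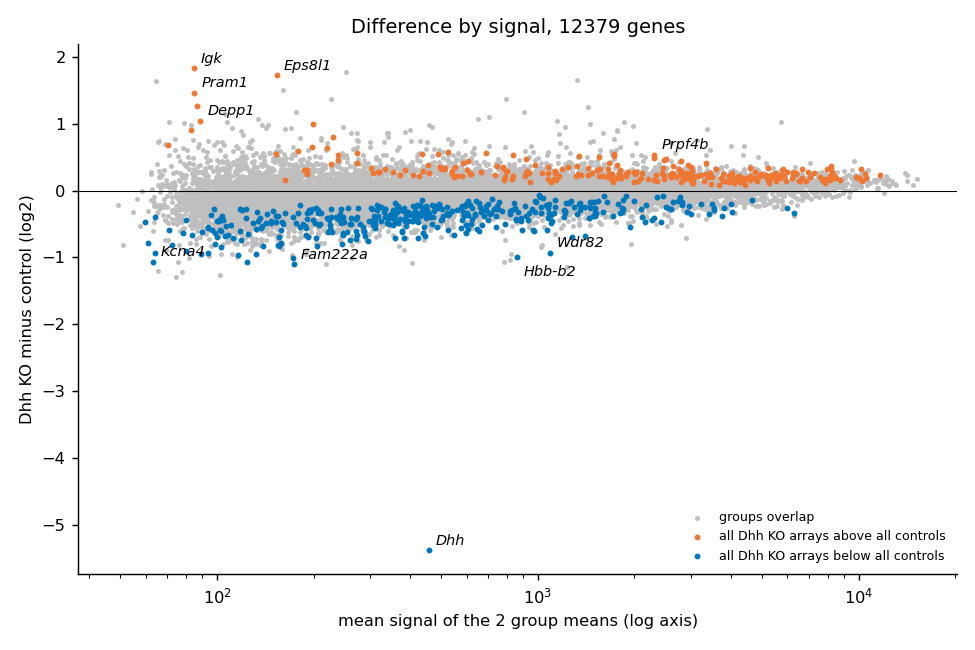
Log2 difference, Dhh KO minus control, against the mean signal on a log axis; each point is 1 of the 12379 genes, orange where all 4 knockout arrays are above all 4 controls, blue where all are below. Dhh stands apart at -5.37, and blue points gather at low signals while orange points gather at high signals.

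The lean depended on how bright a gene was. In the dimmest quintile of genes by mean signal over all 19 arrays (69.4 to 203), the median difference was -0.13, with 13 genes above the controls without overlap (0.525%) and 90 below (3.63%). In the brightest quintile (1822 to 15620), the median was 0.05, with 155 above (6.26%) and 38 below (1.53%). The 3 quintiles between them had medians of -0.08, -0.05 and -0.01, in order of brightness. By the length of the gene on the genome, the medians ran from -0.06 in the shortest quintile to -0.01 in the longest.

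The knockout arrays also differed in a measure of RNA integrity. The 3'/5' ratio compares probe sets at the 2 ends of one transcript, and it is higher where the 5' end is under-represented. For Gapdh it was 1.93, 2.01, 1.89 and 1.93 on control arrays 5 to 8 and 2.68, 2.79, 2.08 and 2.54 on Dhh KO arrays 1 to 4. Every knockout lay above every control, with Dhh KO 3 closest to them. The means were 2.52 ± 0.311 (SD, n = 4) and 1.94 ± 0.0534 (SD, n = 4), and the exact two-sided permutation test gave p = 0.0286, the smallest that 70 arrangements allow. Adjusted over the 5 ratios examined, that was 0.0714. The raised Gapdh ratio of these arrays was known before the test, so its p-value restates a known separation. The ratio of 18S ribosomal RNA was also higher in every knockout, 1.38 ± 0.0760 against 1.19 ± 0.0686 (SD, n = 4 each, exact permutation p = 0.0286, adjusted p = 0.0714). For Pcx, the mean was 4.68 against 3.12 (n = 4 each, exact permutation p = 0.0857). For Tfrc it was lower in the knockouts, 0.448 against 0.555 (n = 4 each, exact permutation p = 0.0571), and for beta-actin it was 1.01 against 1.03 (n = 4 each, exact permutation p = 0.6).

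**Figure D3:**
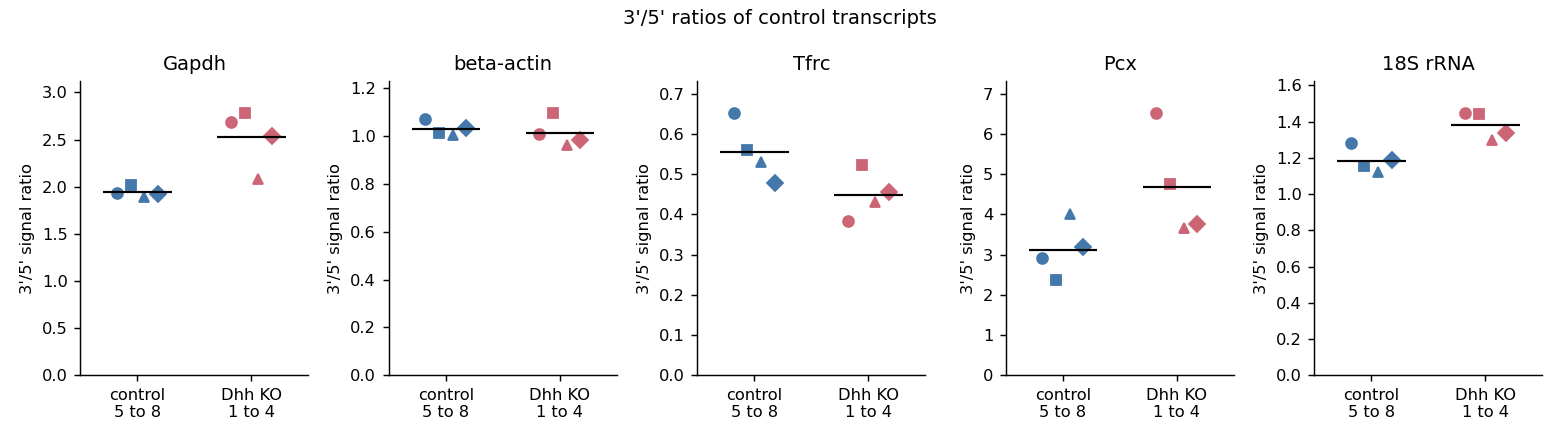
Ratio of 3' to 5' probe set signals for 5 transcripts on control arrays 5 to 8 (blue) and Dhh KO arrays 1 to 4 (red); symbols follow array order as circle, square, triangle, diamond, lines are means, and axes start at 0. Gapdh and 18S ratios are higher on every knockout array, beta-actin ratios overlap, and Tfrc means go the other way.

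Beside the expression values, the order of the knockout arrays in this ratio can be read directly. Among the 676 genes whose groups did not overlap, Dhh KO 3, with the ratio nearest the controls, was the knockout array nearest to them in 32.7% of genes. The share was 25% for Dhh KO 1, 27.2% for Dhh KO 2 and 15.1% for Dhh KO 4, whose ratio of 2.54 was the third highest. Dhh KO 4 was the array farthest from the controls in 36.4% of these genes. With the log2 Gapdh ratio as a covariate over the 8 arrays, 0 genes were called (236 higher and 331 lower at an unadjusted p under 0.05, limma), and the Dhh difference was -4.589 (adjusted p = 0.118). Since the ratio separates the 2 groups, integrity and genotype cannot be told apart over these 8 arrays.

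Wdr82 came second to Dhh in the ranking. It encodes a WD-repeat subunit of the SET1 complexes that methylate histone H3 at lysine 4. Its signal was 1505, 1194, 1383 and 1640 in the controls and 679, 862, 751 and 698 in the knockouts. Every knockout was well below every control, with a ratio of means of 0.522 and a log2 difference of -0.93 (SE 0.12, unadjusted p = 1.72e-05). Ihh KO arrays 1 to 4 of the same set read 1467, 1202, 720 and 1281, so Ihh KO 3 lay within the range of the Dhh knockouts. The adjusted p of Wdr82 for Dhh KO against control was 0.106 (limma), so it did not pass. Leaving out 1 array at a time gave adjusted p values from 0.0709 (without control 6) to 0.602 (without Dhh KO 4), and over all alternatives the range was 0.00589 to 0.933, the lowest in a block that crosses the 2 sets of arrays.

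Among genes with an unadjusted p under 0.01 and no overlap (85 higher and 129 lower), the 12 largest differences in each direction were examined by name, predicted genes aside. Apart from Dhh, each had an adjusted p of 0.106 or more. The largest upward differences belonged to dim genes, with control signals around the filter of 69.4. Igk, the immunoglobulin kappa locus, read 54.2, 75.1, 33.9 and 2.22 in the controls and 99.3, 138, 108 and 165 in the knockouts, a difference of 1.83 (SE 0.58), with control 8 far below the rest. Eps8l1, of the Eps8 family of actin regulators, read 116, 11.2, 136 and 66.9 against 238, 225, 206 and 229 (1.73). Pram1, a myeloid adaptor protein, read 66.9, 26.2, 49.9 and 27.9 against 151, 74.0, 137 and 148 (1.47). Depp1, a regulator of autophagy induced by FoxO factors, was 1.05 higher, and Tbc1d30, a Rab GTPase activator, 0.90 higher.

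The brighter genes of that list had smaller differences and tighter groups. Prpf4b, a kinase of the splicing machinery, read 1913, 1732, 2076 and 1806 in the controls and 2614, 2568, 2662 and 3076 in the knockouts, a difference of 0.54 (SE 0.09, unadjusted p = 0.00014, adjusted p = 0.411, limma). Ralgapa1, which switches off Ral GTPases, read 1345, 1477, 1378 and 1365 against 2168, 1563, 2383 and 2099 (0.54). Zfp182, a zinc finger protein, read 341, 444, 305 and 327 against 521, 515, 494 and 530 (0.55). The RNA-binding protein gene Rbm4b and the long noncoding RNA Snhg7 were each 0.56 higher. Over all probe sets above the filter, the differences ran from -0.19 to 0.91 in Rbm4b and from -0.12 to 0.55 in Zfp182. They ran from -0.10 to 0.55 in Ralgapa1 and from -0.05 to 0.54 in Prpf4b. Tap1, which carries peptides into the endoplasmic reticulum for MHC class I, read 227, 183, 177 and 189 against 297, 306, 280 and 254.

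The Clk kinases, which phosphorylate splicing factors as Prpf4b does, were looked up after the values had been seen. Clk1 read 2788, 2893, 2830 and 2933 in the controls and 3999, 3591, 3877 and 3770 in the knockouts, a difference of 0.41 (SE 0.07, unadjusted p = 9.4e-05, adjusted p = 0.388, limma). Clk4 read 1260, 1488, 1518 and 1391 against 2339, 1720, 2303 and 1840, a difference of 0.53 (adjusted p = 0.458, limma). Neither pair of groups overlapped, beside 2.19% of all genes in that direction and 6.26% in the brightest quintile, where Clk1 lies. Clk2 and Clk3 differed by 0.21 and 0.19, with overlap, and 0 of the 4 passed.

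**Figure D4:**
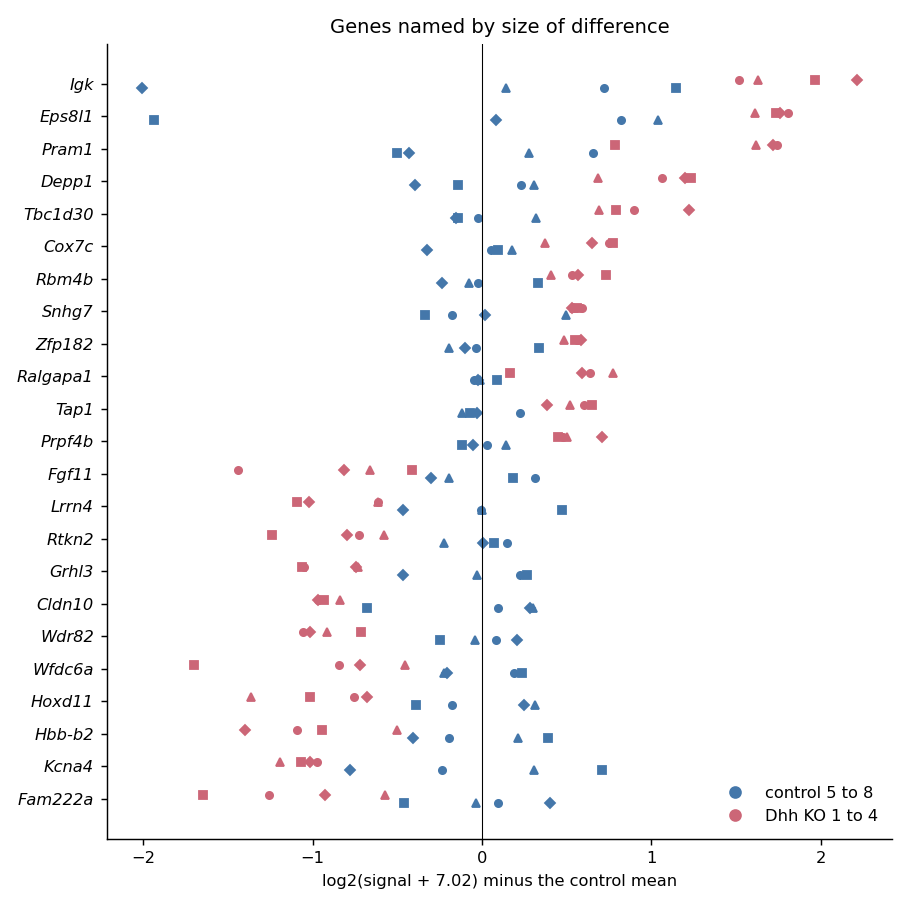
Level of the 23 genes with the largest differences other than Dhh, each array as log2(signal + 7.02) minus the mean of control arrays 5 to 8 (blue, controls; red, Dhh KO arrays 1 to 4; circle, square, triangle, diamond in array order). The 2 groups do not overlap in any of the 23, by the rule that chose them, and in Snhg7 the highest control (782) lies just under the lowest knockout (804).

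On the lower side, Fam222a read 249, 167, 226 and 310 in the controls and 93.1, 69.5, 154 and 119 in the knockouts, a difference of -1.10 (SE 0.26). Ihh KO arrays 1 to 4 read 121, 83.4, 92.9 and 120 for Fam222a, within the range of the Dhh knockouts. Hbb-b2, a beta globin, read 974, 1465, 1292 and 839 against 519, 576, 784 and 418 (-0.99). It read 802, 1024, 1725 and 978 on Ihh KO arrays 1 to 4, each above every Dhh knockout. The globin genes are near-identical copies whose probe sets can share signal, and Hba-a2, an alpha globin, did not follow, with a difference of 0.05 and 5140 to 5557 against 5314 to 5865. Among the dimmer genes on this side were Grhl3, a transcription factor of barrier epithelia, at -0.90, Cldn10, a tight junction protein, at -0.93, and Wfdc6a, a WAP domain protease inhibitor, at -0.93. Their signals were 73.9 to 128, 50.1 to 106 and 104 to 145 in the controls and 46.5 to 60.4, 39.6 to 44.0 and 32.6 to 87.2 in the knockouts. The homeobox gene Hoxd11 was 0.95 log2 units lower, the potassium channel gene Kcna4 1.06 lower, and the intracellular FGF gene Fgf11 0.83 lower.

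Probe sets of one gene often disagreed. Of 6200 genes with more than 1 probe set above the filter, 48.7% had all of them on one side of 0. Among the 362 of these whose groups did not overlap, the share was 51.1%. The widest gap was in Adi1, an enzyme of methionine salvage, whose probe sets ran from -0.46 to 1.48. Next were Mff, a mitochondrial fission factor, from -0.83 to 1.10, Kcnq5, a potassium channel, from -0.45 to 1.31, Olfm1, a secreted olfactomedin, from -0.12 to 1.64, and Kdm7a, a histone demethylase, from -1.49 to 0.21.

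RNA came from whole ovaries, so fewer cells of a type and less RNA per cell cannot be told apart in what follows. Markers of the main ovarian cell types were present on all 8 arrays, and none of their tested members passed. Of 7 tested steroidogenic theca genes, 6 were higher and 1 lower, with a median of 0.17. Cyp11a1, which makes pregnenolone from cholesterol, read 7571, 8738, 8309 and 4607 in the controls and 8993, 9046, 9621 and 8901 in the knockouts. The groups did not overlap, control 8 was far below the other controls, and the difference was 0.36 (SE 0.17, unadjusted p = 0.0543, limma). Cyp11a1 was the 1 member of the 7 without overlap, beside 2.19% of all genes higher and 6.26% of the brightest quintile. Hsd3b1, the next enzyme toward progesterone, and Fdx1, which supplies its electrons to Cyp11a1, differed by 0.14 and 0.17.

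Granulosa markers divided 7 higher to 4 lower with a median of 0.06, or 0.137 without control 8. Their range was narrow, from -0.15 for Hsd17b1, which reduces estrone, to 0.26 for the activin subunit Inhba. Oocyte markers divided 7 to 4 with a median of 0.13 (0.273 without control 8), including Nlrp5, needed by the early embryo, and the growth factor Gdf9 at 0.34 and 0.35 and the transcription factor Sohlh1 at -0.48. Stromal markers divided 3 to 6 with a median of -0.07, or -0.015 without control 7. Among them the collagen gene Col1a2 differed by 0.18 and Lum, a collagen-binding proteoglycan, by -0.47. Both follicle lists changed sign without control 6: the medians were then -0.065 for granulosa and -0.059 for oocyte markers. Under quantile normalization with all 8 arrays they were -0.027 for granulosa and 0.144 for oocyte markers.

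The corpus luteum list had the highest median, 0.79, with 5 of 6 higher. Its level rested on control 8: Sfrp4, a secreted Wnt antagonist, read 6297, 7045, 4825 and 532 in the controls and 5719, 8681, 5202 and 7638 in the knockouts. Ptgfr, the receptor for prostaglandin F2 alpha, likewise read 1275, 4089, 1069 and 111 against 1827, 3495, 832 and 2135. Without control 8 the median of the list was 0.04, and without control 6 it was 1.206. Of the 5 tested ovulation genes 4 were lower, with a median of -0.28 that ran from -0.415 without Dhh KO 2 to -0.179 without control 5. Btc, an EGF-like ligand of the preovulatory follicle, read 167, 169, 145 and 151 against 133, 80.0, 83.4 and 130, without overlap (-0.57, unadjusted p = 0.0225, adjusted p = 0.48, limma). Btc was the 1 member of the 5 without overlap, beside 3.27% of all genes lower.

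**Figure D5:**
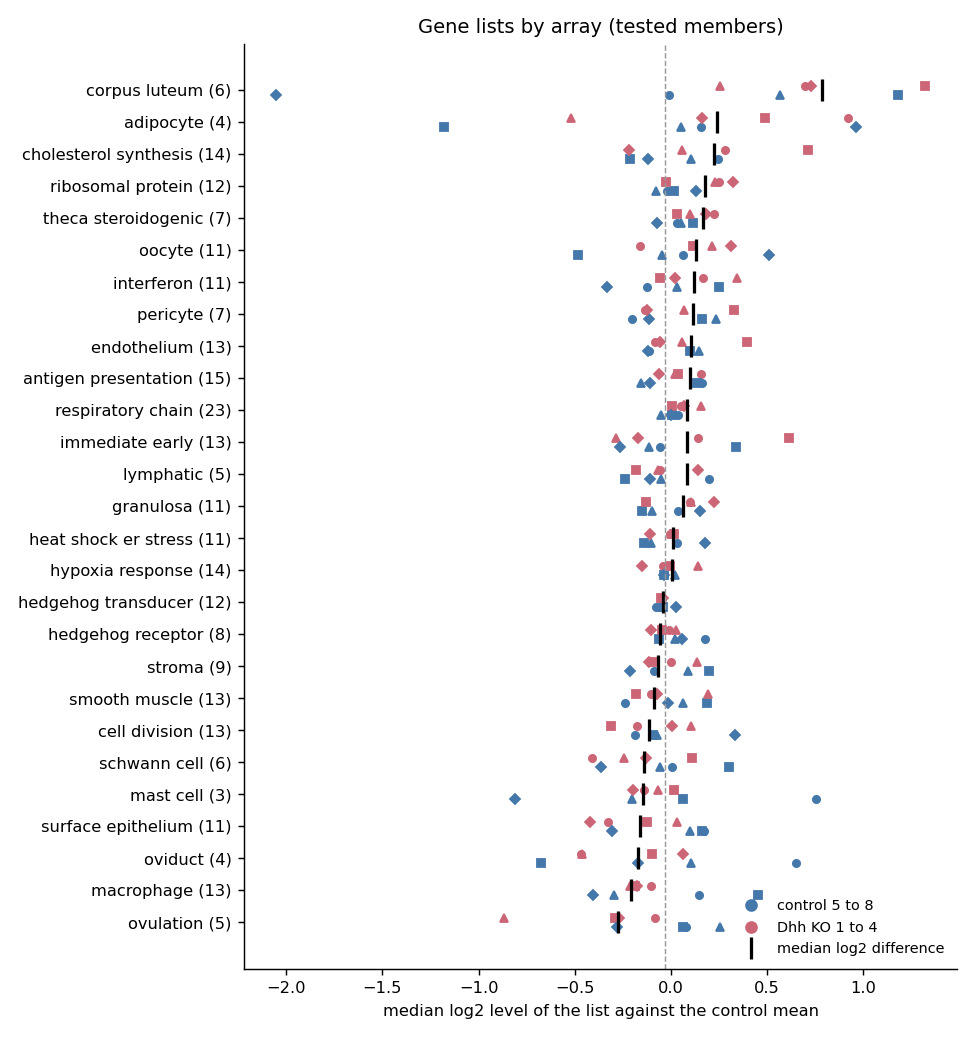
Median log2 level of each gene list on control arrays 5 to 8 (blue) and Dhh KO arrays 1 to 4 (red), relative to the control mean of each gene; symbols follow array order as circle, square, triangle, diamond, black bars are the median log2 differences, and the dashed line is the median over all genes, -0.03. Numbers in brackets count tested members, and in most lists the arrays of the 2 groups overlap, with control 8 far to the left for corpus luteum.

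Contractile and vascular cells gave mixed values. The smooth muscle list divided 5 higher to 8 lower, with a median of -0.09 that was 0.013 without control 6, 0.004 without Dhh KO 2 and -0.199 without Dhh KO 3. Cnn1, calponin of contractile fibres, read 314, 496, 397 and 337 in the controls and 219, 220, 342 and 287 in the knockouts (-0.52, unadjusted p = 0.0218, limma). Des, the muscle intermediate filament, read 84.0, 54.8, 87.4 and 128 against 12.1, 35.3, 98.3 and 23.3 (-1.20), and Acta2, smooth muscle actin, differed by 0.17. The most abundant marker named here, Acta2, therefore went the other way from Cnn1 and Des. Endothelial markers divided 10 higher to 3 lower, with a median of 0.10 that was 0.038 without Dhh KO 2 and 0.155 without control 8. Kdr, the main receptor for VEGF, read 552, 719, 704 and 584 against 731, 1058, 826 and 714 (0.37, unadjusted p = 0.0341, limma), and Pecam1 differed by 0.30. The pericyte receptor Pdgfrb differed by -0.31 and the pericyte channel subunit Kcnj8 by 0.26, in a list of 5 higher to 2 lower with a median of 0.11. That median was 0.045 without Dhh KO 2 and 0.266 without control 7. Lymphatic markers divided 3 to 2, with a median of 0.08 that was -0.135 without Dhh KO 4, -0.019 without control 6 and 0.171 without Dhh KO 1.

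Desert hedgehog is the Hedgehog ligand of Schwann cells, and 6 of the 12 listed Schwann cell markers were tested, 3 higher and 3 lower. Their median was -0.14, or -0.065 without control 7. Pmp22, a myelin protein that other cells also make, read 1769, 1885, 2053 and 2056 in the controls and 1385, 1493, 1681 and 1433 in the knockouts. All 4 knockouts were lower, by 0.37 log2 units on average (SE 0.10, unadjusted p = 0.00256, adjusted p = 0.458, limma). Pmp22 was the 1 member of the 6 without overlap, beside 3.27% of all genes lower. Ngfr, the p75 neurotrophin receptor, read 457, 373, 207 and 274 against 217, 238, 124 and 218, with overlap. S100b, a calcium-binding glial protein named after its values were seen, read 101, 316, 31.8 and 29.4 against 37.3, 99.2, 9.59 and 31.7, and Egr2, a regulator of myelination, was higher on average by 0.50. Of the 12 members 3 had no single-gene probe set and 3 were under the filter.

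Among immune cells, 12 of 13 tested macrophage markers were lower, with a median of -0.21. C1qa, a complement subunit made by macrophages, read 609, 657, 423 and 316 in the controls and 311, 300, 380 and 266 in the knockouts (-0.62, unadjusted p = 0.02, adjusted p = 0.48, limma). Controls 5 and 6 were the high arrays, and without control 6 the median of the list was -0.06, while without control 8 it was -0.35. Adgre1, which encodes F4/80, differed by -0.43. The summed signal of the 14 markers with a probe set was 13940 to 26600 in the controls and 15170 to 18500 in the knockouts, so the sums overlapped. Lymphocyte markers were mostly under the filter, 7 of the 9 with a probe set, and the remaining 2 were lower. Their median was -0.24, from -0.433 without Dhh KO 2 to -0.122 without control 5. Of 3 tested mast cell markers 1 was higher and 2 lower, with a median of -0.15 that was 0.118 without control 5 and -0.419 without control 8.

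Of 15 tested antigen presentation genes, 10 were higher and 5 lower, with a median of 0.10 that was -0.027 without control 8 and 0.004 without Dhh KO 1. Tap1 (0.54) and Psmb9, a subunit of the immunoproteasome (-0.58), lie next to each other in the MHC region, and both had groups without overlap in opposite directions. They were the only such members of the 15, 1 in each direction, beside 2.19% of all genes higher and 3.27% lower. Psmb9 read 863, 814, 659 and 764 in the controls and 519, 520, 656 and 393 in the knockouts, with Dhh KO 3 only just under control 7. Of 11 tested interferon-response genes 7 were higher, with a median of 0.12. Ifit1, an interferon-induced RNA-binding protein, read 175, 282, 228 and 131 against 385, 366, 397 and 224 (0.75, unadjusted p = 0.0145, adjusted p = 0.473, limma), and the median of the list was 0.003 without control 8 and 0.223 without control 6.

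Surface epithelium markers divided 2 higher to 9 lower, with a median of -0.16 (-0.066 without control 5) and 0 with an unadjusted p under 0.05. Upk1b, a uroplakin, was the nearest, at 416, 458, 347 and 279 against 287, 284, 326 and 271. Ovgp1, the oviductal glycoprotein, was at 560 on control 5 and at 23.3 to 49.2 on the other 7 arrays, in an oviduct list of 2 higher and 2 lower. The median of that list was -0.17, or -0.416 without control 6 and -0.341 without Dhh KO 4. Fat cell markers were at varied levels within both groups: Adipoq, adiponectin, ran from 57.3 to 290 in the controls and from 90.9 to 459 in the knockouts. The 4 tested fat cell markers had a median of 0.24, which was -0.133 without control 6 and 0.591 without control 8. The 2 red cell markers had a median of 0.08, which was -0.052 without control 5 and 0.148 without control 7.

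Of 12 tested ribosomal protein genes 10 were higher, with a median of 0.18, and 6 of the 12 had an unadjusted p under 0.05, all higher, beside 3.77% of all genes. Rps3 read 10550, 11060, 10290 and 10930 in the controls and 12960, 11100, 12590 and 13810 in the knockouts, a difference of 0.23 (SE 0.07, unadjusted p = 0.00652, adjusted p = 0.467, limma). All 4 knockouts were above all 4 controls, though Dhh KO 2 only just. Rps3 was the 1 member of the 12 without overlap, beside 2.19% of all genes higher and 6.26% of the brightest quintile. A dimmer Rps3 probe set above the filter differed by -0.04, with overlap. Rpl4 and Rplp0 were each 0.28 higher. These genes are among the brightest on the array, where the median difference over all genes was also upward, and under quantile normalization the median of the list was 0.06.

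Of 23 tested respiratory chain genes 15 were higher and 8 lower, with a median of 0.09 (0.055 without Dhh KO 3). Under quantile normalization the median of the list was 0.005. Of the 23 genes 4 were above the controls without overlap, beside 2.19% of all genes and 6.26% of the brightest quintile. Cox7c, a subunit of cytochrome oxidase, read 176, 181, 192 and 134 in the controls and 289, 294, 221 and 270 in the knockouts (0.64). Ndufb9, of complex I, read 5385, 5158, 5317 and 5347 against 6194, 6044, 6121 and 5895 (0.19, SE 0.06, unadjusted p = 0.00534, adjusted p = 0.467, limma). In Ndufb9 the spread within each group was smaller than the distance between them.

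Cholesterol synthesis genes, which feed steroid production, divided 12 higher to 2 lower, with a median of 0.22. Hmgcs1, at the entry of the pathway, read 6506, 6724, 7123 and 5667 in the controls and 8381, 8673, 7656 and 6430 in the knockouts (0.25, unadjusted p = 0.0321, adjusted p = 0.503, limma). Lss, which closes the sterol rings, read 2031, 1186, 2107 and 1598 against 2383, 4492, 1870 and 1657, and Fdps read 1102, 1143, 1405 and 1027 against 1466, 2320, 1607 and 1037. Dhh KO 2 was the highest array for all 3, and without it the median of the list was 0.02. Without control 6 it was 0.098 and without Dhh KO 4 it was 0.35. With the Gapdh ratio as a covariate over the 8 arrays it was -0.10.

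Cell division genes divided 3 higher to 10 lower, with a median of -0.11. Aurkb, a kinase of the mitotic chromosomes, read 530, 629, 776 and 850 in the controls and 544, 446, 589 and 552 in the knockouts (-0.37, unadjusted p = 0.0456, adjusted p = 0.526, limma). Control 8 was the highest array for Aurkb, for the spindle checkpoint kinase Bub1 and for cyclin A2, Ccna2, and without it the median of the list was -0.01, while without Dhh KO 2 it was -0.052.

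Immediate early genes, whose transcription starts soon after a stimulus, divided 9 higher to 4 lower, with a median of 0.08 that was -0.046 without control 5 and 0.299 without Dhh KO 4, and differed between the knockout arrays themselves. Egr1 read 2064, 2363, 2221 and 2394 in the controls and 4700, 4116, 1730 and 2505 in the knockouts, so Dhh KO 1 and 2 were high and Dhh KO 3 was the lowest of all. Egr2 followed the same arrays, at 914, 984, 370 and 514. Junb read 83.2, 133, 75.7 and 87.2 in the controls and 55.8, 56.1, 42.8 and 45.0 in the knockouts, lower without overlap (-0.81, unadjusted p = 0.00807, adjusted p = 0.467, limma). Of the 13 tested members it was the 1 without overlap, beside 3.27% of all genes lower.

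Hypoxia-response genes divided evenly, 7 to 7, with a median of 0.005 (-0.014 without Dhh KO 3, 0.069 without control 5), and 2 of the 14 were below the controls without overlap, beside 3.27% of all genes. Pdk1, which holds pyruvate back from mitochondria, read 1031, 894, 1290 and 1066 in the controls and 695, 651, 879 and 614 in the knockouts (-0.59, SE 0.15, unadjusted p = 0.00218, adjusted p = 0.458, limma). Hilpda, a lipid droplet protein, read 315, 337, 309 and 353 against 210, 205, 228 and 283 (-0.50, adjusted p = 0.467, limma). Vegfa, the best-known target of hypoxia, read 638, 549, 618 and 505 against 612, 390, 683 and 246, with overlap. Heat shock and endoplasmic reticulum stress genes divided 6 to 5, with a median of 0.008 (-0.054 without control 5).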

How the data were processed

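The series matrix held 1 linear intensity for each of 45101 probe sets on 19 Affymetrix mouse arrays, deposited by the authors as MAS5 signals per the submitters' processing notes. The mean after trimming 2% at each end was 500 on every array. RNA was extracted with PicoPure and amplified with WT-Ovation Pico from 50 ng, per the labels' protocols. Values were taken as log2(signal + 7.02), where the constant is the 10th percentile of the table. Probe sets whose mean fell below the 40th percentile, or a signal of 69.4, were dropped, and the brightest single-gene probe set stood for each gene. Gene names came from GEO's platform annotation, with 34741 of 34945 single-gene probe sets matched to RefSeq (GRCm38.p6). Positions are not given, since no build is named for the array.

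Dhh KO arrays 1 to 4 were compared with control arrays 5 to 8 in limma 3.58.1 (R 4.3.3; lmFit, then eBayes with the trend option; two-sided tests; adjusted p under 0.05). The script was tested on simulated data. Ratios were tested by exact permutation. Figures used Python 3.11.15 and matplotlib 3.10.9. Apart from the Clk genes, S100b, Smtnl2 and the neighbours of Wdr82 on chromosome 9, chosen after their values were seen, genes were named by rule: all Hedgehog members, every called gene, the 12 largest differences each way with p under 0.01 and no overlap (predicted genes skipped), the 3 smallest p values of each list, and the 5 genes whose probe sets lay farthest apart. The comparison and the 31 lists (345 genes) were chosen with earlier results of these data known. No list was given a test. One listed gene is not reported here. Equal numbers were not used as pairs: no label says what a number marks, and the correlation of deviations, 0.221, 0.0592, 0.356 and 0.18 for Dhh KO 1 to 4 with control 5 to 8, was not over 0.1 in every pair. Each knockout did correlate best with the control of its own number, so a pairing remains possible. A fit with these pairs as a block also called Dhh alone. All pairs among the 8 arrays differed, and the number of arrays limits the precision. Medians by protein length were replaced by medians by gene length on the genome, known for 12319 genes.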

Additional observations from a re-analysis of the deposited data

Results flagged for a closer look

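Of 330 sets of 4 arrays examined (a named gene or a list median in 1 group), 20 held an array that stood far from the other 3; chance gives about 1 in 20. Among Hedgehog genes, the signal of Ptch1 was 5104 on control 8 against 4236 to 4351 on the other controls. Boc read 446.6 on control 5 against 343 to 349, and Csnk1a1, a casein kinase of the pathway, read 6195 on control 5 against 5416 to 5503. Prkaca read 732.2 on Dhh KO 4 against 1623 to 1760 on the other knockouts.

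Control 8 also stood apart for Sfrp4, at 532 against 4825 to 7045, for Sox17, an endodermal and vascular transcription factor, at 290.3 against 344 to 355, and for the median level of the surface epithelium list, at -0.307 against 0.0963 to 0.17. Control 5 stood apart for Ovgp1, at 560.3 against 39.5 to 49.2. Control 6 had a signal of 10920 for the chaperone Hspa8 against 10470 to 10530, and control 7 a hypoxia list median of 0.0188 against -0.0375 to -0.0345.

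In the knockouts, Dhh KO 2 stood apart for the endothelial receptor Tek (1206 against 722 to 787), for Pram1 (74.0 against 137 to 151), for Adgre1 (152.8 against 119 to 123) and for the chemokine Ccl5 (142 against 61.4 to 68.9). Dhh KO 1 had a signal of 1567 for the myeloid adaptor Tyrobp against 1230 to 1243. Dhh KO 3 stood apart for Ptx3, an ovulatory matrix protein (90.3 against 253 to 273), Hba-a2 (5865 against 5314 to 5403) and Ngfr (124 against 217 to 238). Dhh KO 4 stood apart for Ifit1 (223.6 against 366 to 397) and for the median level of the heat shock and ER stress list (-0.107 against -0.00396 to 0.0149).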

How the results depend on the processing

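The call of Dhh alone held under quantile normalization, median centring, other pseudocounts, no filter, probe sets tested one by one or averaged, array weights, other variance moderation and a threshold of 0.10. Leaving out 1 array gave 1 to 2 called genes (2 without control 8, the other being Smtnl2), a Dhh difference of -5.576 to -5.105 and a Gapdh ratio difference of 0.4948 to 0.7298. No gene (0) was called with the filter at the 60th percentile, which removed Dhh (434 higher and 496 lower at an unadjusted p under 0.05, limma). None (0) was called over the 12 arrays of the set (Dhh -5.37, adjusted p = 0.416; 458 and 666), with the set as a block over 19 arrays (-5.37, 0.119; 503 and 749), or with the Gapdh covariate over 8 arrays (-4.589, 0.118; 236 and 331) and 12 arrays (-4.555, 0.611; 370 and 609). All 19 arrays against 8 controls gave 19. That fit counts the 8 controls as separate, which no label states. Some genes ran alike in controls 1 to 4 and in 5 to 8. Ptgfr read 1235, 3956, 1001 and 66.9 in controls 1 to 4, against 1275, 4089, 1069 and 111. Ovgp1 read 409, 26.0, 40.4 and 38.2 against 560, 40.6, 49.2 and 39.5. Others, such as Hoxd11 (237.5, 248, 314 and 62.5 against 103, 88.3, 148 and 141), did not. Whether control arrays share RNA was not tested. The 3'/M ratio of Gapdh differed by 0.309 (n = 4 each, exact permutation p = 0.0571). The fits over 12 and 19 arrays include Ihh KO 4, whose Dhh signal was 2.96 against 527 to 709 on the other Ihh KO arrays. That array therefore enters the spread of Dhh in those fits. Against Ihh KO without replicate 4 the differences were 0.65 for Ptch1, 3.05 for Hhip and 2.07 for Ihh. For Dhh in that comparison the SE was 0.305 without replicate 4 and 1.04 with it, over the 12 arrays of the set. With the replicate block by title numbers, which pairs the knockouts with controls 1 to 4 of the other set of arrays, 3997 genes were called; that block crosses the 2 sets. With the numbers offset by 4 (controls 5 to 8) the replicate block gave 1, and every knockout correlated best with its own number.

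Of 132 named genes besides Dhh, 68 changed sign in at least 1 alternative. Of the 52 with an unadjusted p under 0.05, 14 did, 5 of them outside the block by title numbers. The values that follow are those of the 14, and of Evc, Evc2 and Pdpn, which changed sign and were called under that block. Under it 40 named genes besides Dhh were called, most of them not listed here. With probe sets averaged, Ptch1 was -0.11 and Adi1 0.61. With the covariate over 8 arrays, Cdon was 0.40 and Des 0.53, and over 12 arrays Cnn1 was 0.077 and Des 0.012. Under the block by title numbers, Evc was -0.693, Evc2 0.32, Gsk3b -0.18, Tap1 -0.17, Rtkn2 0.47, Fgf11 0.12, Btc 0.52, Pdpn -0.40, Ngfr 0.17, Rps3 -0.03, Rplp0 -0.046 and Ndufb9 -0.069. The cause of these shifts was not tested.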

Other observations

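Wdr82 has a neighbour in gene order on chromosome 9, Ppm1m, which encodes a protein phosphatase and was also lower without overlap. Ppm1m read 526, 602, 693 and 707 in the controls and 447, 390, 429 and 400 in the knockouts, a difference of -0.59 (SE 0.13, unadjusted p = 0.000888, adjusted p = 0.458, limma). On Ihh KO arrays 1 to 4 it read 480, 478, 240 and 601, with only Ihh KO 4 among the controls. Abhd14b, an alpha/beta hydrolase gene, closes a stretch of 9 tested genes that begins with Wdr82. It read 267, 423, 417 and 384 against 176, 217, 261 and 212, a difference of -0.75 (SE 0.19, adjusted p = 0.458, limma). On Ihh KO arrays 1 to 4 Abhd14b read 391, 566, 333 and 403, each above every Dhh knockout. Of the 9 genes 7 were lower and 3 were lower without overlap, beside 6969 and 405 of all 12379 genes (3.27% for the second), while Alas1, the first enzyme of heme synthesis, and Acy1, an aminoacylase, were 0.17 and 0.38 higher on average. The stretch was cut, after its values were seen, to begin and end with genes lower without overlap. Wdr82 and Abhd14b are therefore in that count by choice, so the share over all genes is not a like comparison.

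Around Dhh itself, on chromosome 15, the 50 tested genes on each side had a median difference of -0.03. Of these 100 genes 3 were above and 4 below the controls without overlap, which is 7% beside 5.47% of the 12351 genes with a place in the gene order.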
